A study of Arabidopsis thaliana with 6 samples.

Results

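The 200 brightest probe sets of wild-type Arabidopsis thaliana floral buds are described here. They were taken as those with the highest geometric mean MAS5 signal over the 2 wild-type arrays, out of 22746 probe sets other than controls, or 0.879% of them. The study hybridised RNA of mixed floral buds up to stage 13, cut from primary inflorescences when Col-0 plants were 42 days old and grew in 12 h of light and 12 h of dark. It compared atyak1-1 mutants and atyak1-2 mutants with wild-type plants, with 2 biological replicates of each on 1 array apiece. Each mutant has its own allele of AtYAK1, which encodes a DYRK-type kinase, and the question was what this gene does as pollen develops. The labels give no age, treatment or background that differs between the groups, and what kind of mutation each allele is was not given in the sources used here.

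In growing plant tissue a large part of the messenger RNA encodes the proteins of the ribosome, whose subunits are made in step with growth. Green floral organs also carry abundant transcripts of photosynthesis, from the nuclear and the chloroplast genome. Late buds contain pollen, which stores transcripts for the wall of the pollen tube, among them enzymes that cut or modify pectin. MAS5 condenses the probes of a set to 1 signal, so the order of the probe sets is an order of brightness. It depends on the probes as well as on the transcript, and no amount of one transcript is set against another here.

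The wild-type values chose the members, so their levels in the wild type and their differences from it are given as a description. The members ran from a wild-type geometric mean of 8236 to one of 20557. At the edge of the choice the last 2 inside had 8267 and 8236, and the first 2 outside had 8228 and 8225, so the limit does not fall at a gap. Of the 200, 63 had exactly 1 gene in the probe table, each a different gene. Another 23 listed several genes and 114 (57%) had none listed, against 38.4% of all probe sets. The roles given below therefore cover 31.5% of the members. On both wild-type arrays all 200 lay far above 73.6, the mean signal under which probe sets were not tested.

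Most of these signals were kept in the mutants, and the members furthest from the wild type were lower. Of the 200 members, 171 were also among the 200 brightest probe sets over the 4 mutant arrays. The count was 170 for atyak1-1 and 171 for atyak1-2 over both arrays of each. Single arrays shared 166 and 169 members in atyak1-1, 168 and 170 in atyak1-2, and 189 and 187 in the wild type, whose arrays made the choice. As a measure of replicate error between single arrays, the 200 brightest probe sets of one wild-type array and the other had 176 in common. The replicates had 172 in common in atyak1-1 and 177 in atyak1-2. A single wild-type array and a single mutant array had 161 to 170 in common. The counts over means of several arrays have no such measure beside them. Of the 29 members that left, 15 were still within the 300 brightest probe sets of the mutants and 10 were at least 2-fold lower. The 29 probe sets that took their places had wild-type ranks from 201 to 332.

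The middle of the distribution lay close to 0. The median log2 difference of the members, mean of both alleles minus wild type, was 0.02, with quartiles at -0.07 and 0.09, against a median of 0.09 and quartiles at -0.09 and 0.25 over the 15164 probe sets tested. Within 0.25 log2 units of the wild type lay 172 members, or 86.0%, against 61.1% of all probe sets tested. Replicates were also closer among the members, with a median SD of 0.12 log2 units against 0.19 over all tested. By array the median member differed from the wild-type mean by -0.03 and 0.02 in atyak1-1, by 0.04 and 0.03 in atyak1-2, and by -0.07 and 0.07 in the wild type. The mutant medians thus lay between those of the wild-type arrays. The members held 14.7% and 15.0% of the summed signal in atyak1-1, 15.3% and 15.0% in atyak1-2, and 14.8% and 16.1% in the wild type. Wild-type replicate 2, the array with the largest share, was brighter than replicate 1 by a median of 0.14 log2 units over the members. Without wild-type replicate 1 the median change of the members was -0.05, and without wild-type replicate 2 it was 0.09.

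**Figure D1:**
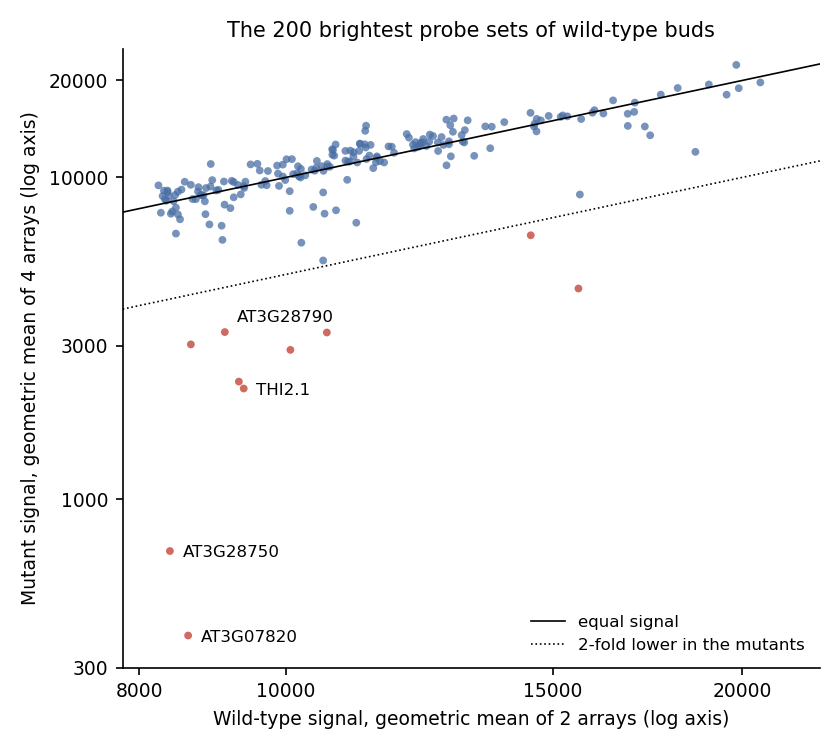
Each point is 1 of the 200 members, with its wild-type signal (geometric mean of 2 arrays) on the horizontal axis and its mutant signal (geometric mean of 4 arrays) on the vertical axis, both log axes. Most members follow the line of equal signal, and the 10 red points lie under the dotted line of a 2-fold lower signal.

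The choice of members by high wild-type signal favours lower values elsewhere, so the balance of lower and higher members is a description. At least 2-fold lower were 10 members, or 5.00%, and at least 2-fold higher were 0, where 3.29% of all tested probe sets were lower by that much and 0.547% higher. The highest member differed by 0.36 log2 units, a factor of 1.28. Every mutant array lay below both wild-type arrays in 26 members (11.1% of all probe sets tested) and above both in 25 (21.3% of all). In the other 149 members the groups overlapped. The 25 higher members had log2 differences between 0.07 and 0.36 only. In limma's moderated test, with Benjamini-Hochberg adjustment over all probe sets tested, 5 members passed, all lower, where 1.93% of all tested passed in either direction, 1.64% lower and 0.284% higher. With the replicate number as a block 19 members passed, all lower, where 7.59% of all tested passed in either direction, 4.79% lower and 2.8% higher. The wild-type arrays chose the members and enter the contrast, so nothing is read from these counts. Without the block, the count of 5 became 13 when replicate 1 of atyak1-1 was left out (3.4% of all tested were called lower) and 12 when its replicate 2 was (2.12%). It became 0 when the fit lacked any 1 of atyak1-2 replicate 1, atyak1-2 replicate 2, wild-type replicate 1 and wild-type replicate 2 (22, 28, 23 and 21 with an unadjusted p under 0.05, where 0.62%, 0.422%, 0.0462% and 0.0462% of all tested were called lower). By allele 1 member passed in atyak1-1, lower (1.06% of all tested, 0.943% lower), and 1 in atyak1-2, lower (0.963%, 0.864% lower), and these contrasts share the wild-type arrays. The counts for atyak1-1 and atyak1-2 were 11 (2.66% of all tested called lower) and 12 (2.14%) in a fit lacking replicate 1 of atyak1-1, and 3 (0.864%) and 12 (2.13%) in one lacking its replicate 2. They were 0 and 0 in a fit lacking any 1 of the other arrays (15 to 23 with an unadjusted p under 0.05; at most 0.455% of all tested called lower). With the replicate block they were 14 (3.81%) and 14 (3.08%).

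**Figure D2:**
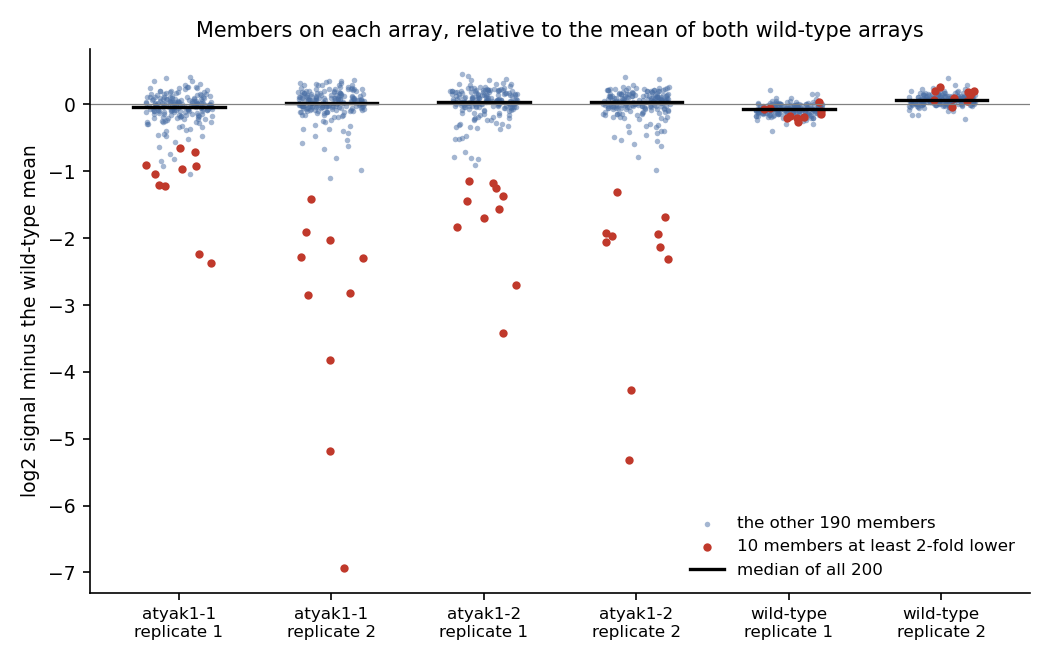
Each point is 1 member on 1 array, as its log2 signal minus the mean of both wild-type arrays, with red for the 10 members at least 2-fold lower and a black bar for the median of all 200. The medians lie between -0.07 and 0.07 on every array, while the red points reach furthest down on atyak1-1 replicate 2.

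Ribosomal proteins were the most frequent class among the members with a single gene. The class was assigned by hand to the members alone, so its share over all probe sets is not given. Of the 63 members with a single gene, 30 (47.6%) encode proteins of the cytosolic ribosome, which reads messenger RNA outside the organelles. Their median log2 difference was 0.06, 29 of the 30 lay within 0.25, 24 were above 0 and 6 below, and 0 passed the test in limma (1 had an unadjusted p under 0.05). Their median signal was 9594 and 10486 in atyak1-1, 10351 and 10002 in atyak1-2, and 9682 and 9849 in the wild type. The median SD between replicates of these 30 was 0.088 log2 units, so their replicates differed by little. All but 1 of the 30 stayed among the 200 brightest of the mutants.

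Among these ribosomal genes the brightest was AT1G52300, for a protein of the large subunit. It had signals of 14488 and 15248 in atyak1-1, 14552 and 13335 in atyak1-2, and 15063 and 14103 in the wild type (-0.02 ± 0.09, log2 difference of the mutant mean from the wild type ± SE, 4 against 2 arrays). The groups overlapped. AT5G20290, for a protein of the small subunit, had 0.07 ± 0.10, and AT3G60245, for another of the large subunit, had -0.03 ± 0.09, again with overlapping groups. AT4G39200, for a small-subunit protein, had the highest difference of the members with a single gene. Its signals were 15089 and 14422 in atyak1-1, 13689 and 14735 in atyak1-2, and 13101 and 9731 in the wild type (0.36 ± 0.13). Every mutant array was above both wild-type arrays (21.3% of all tested). The lower wild-type value carried most of the difference, which was 0.14 without wild-type replicate 2.

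The other ribosomal genes at the upper end differed less. AT3G02080 (small subunit) had 0.20 ± 0.08, AT4G27090 (large subunit) 0.19 ± 0.11 and AT1G01100, a protein of the acidic stalk, 0.18 ± 0.09. AT3G05560 (large subunit) had 0.18 ± 0.09, AT3G09200, which encodes the base of the stalk, 0.17 ± 0.11, and AT2G34480 (large subunit) 0.14 ± 0.08. The groups did not overlap in AT3G02080, AT1G01100, AT3G05560 and AT2G34480, and overlapped in AT4G27090 and AT3G09200. Every mutant array was above both wild-type arrays in 7 of the 30 ribosomal members, near the share of 21.3% over all tested. These genes were named for their high differences, which favours separate groups. The lowest ribosomal gene, AT4G17390 of the large subunit, had -0.19 ± 0.10. It is the 1 ribosomal member that left the 200 brightest of the mutants, at rank 214. The groups overlapped in it.

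Photosynthesis and the chloroplast ATP synthase gave 10 of the named members, and all 10 stayed among the 200 brightest of the mutants. Their median log2 difference was 0.05, with 9 of 10 within 0.25, and 0 passed the test in limma (1 had an unadjusted p under 0.05). The chloroplast gene psbM, for a small subunit of photosystem II, was the brightest member with a single gene. It had 19758 and 17879 in atyak1-1, 20288 and 17887 in atyak1-2, and 18203 and 21742 in the wild type (-0.07 ± 0.11), with overlapping groups. The chloroplast genes atpB and atpE, for subunits of the catalytic part of the ATP synthase, had 0.08 ± 0.09 and 0.09 ± 0.10. The nuclear gene AT2G26500, for a subunit of the cytochrome b6f complex, stood out of this group. It had 11376 and 10540 in atyak1-1, 11653 and 10498 in atyak1-2, and 8946 and 8888 in the wild type (0.30 ± 0.09). Every mutant array was above both wild-type arrays (21.3% of all tested), and the difference was 0.36 within replicate 1 and 0.24 within replicate 2. It did not pass in limma (adjusted p = 0.18).

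Genes known from cold, salt and drought were bright in the wild type, and their groups overlapped in the mutants and the wild type. COR15A, a cold-regulated protein of the chloroplast, had 10483 and 13687 in atyak1-1, 11988 and 13391 in atyak1-2, and 11650 and 15961 in the wild type (-0.15 ± 0.16). AT1G13930, known from the response to salt, had -0.09 ± 0.10. The dehydrin gene AT1G54410 had log2 means within 0.01 of each other, at geometric means of 11128 in the mutants and 11141 in the wild type.

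**Figure D3:**
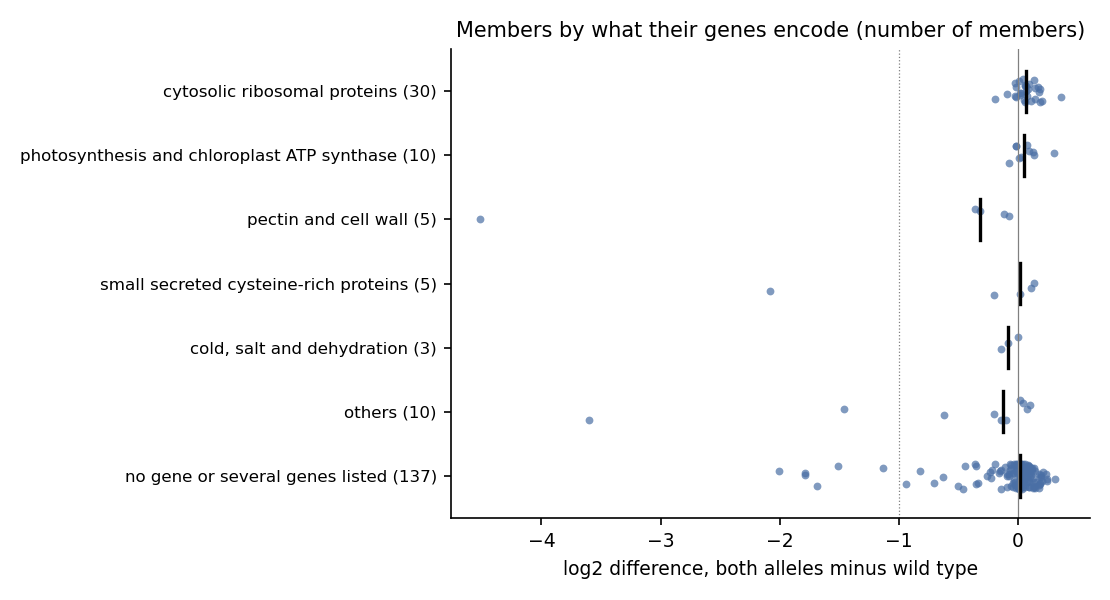
Each point is 1 member, placed by its log2 difference (both alleles minus wild type) in the row of what its gene encodes, with the number of members in brackets, a black bar for the row's median and a dotted line at a 2-fold lower signal. The 30 ribosomal members lie between -0.19 and 0.36, while pectin and cell wall, small secreted proteins, the mixed row and the members without a single gene each hold points past the dotted line.

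The named members furthest below the wild type belong to the cell wall and to secreted or uncharacterised proteins. AT3G07820 encodes a polygalacturonase, an enzyme that cuts pectin. It had signals of 1662 and 70.5 in atyak1-1, 808 and 216 in atyak1-2, and 7469 and 9939 in the wild type. Every mutant array was below both wild-type arrays (11.1% of all tested), and the log2 difference was -4.51 ± 1.17, or 22.8-fold lower. Its rank was 15007 of 22746 on atyak1-1 replicate 2 and 11396 on atyak1-2 replicate 2, against 179 in the wild type. The signal of 70.5 lies under the lowest mean tested, 73.6, so the size of the difference is uncertain on that array. Floral buds are bulk samples, in which fewer cells of a type and less RNA per cell cannot be told apart.

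AT3G28750 had signals of 1781 and 230 in atyak1-1, 1285 and 434 in atyak1-2, and 7253 and 9683 in the wild type (-3.60 ± 0.80, 12.1-fold lower). AT3G28790, which encodes a protein of unknown function, had 5547 and 2226 in atyak1-1, 4033 and 2408 in atyak1-2, and 7626 and 10883 in the wild type (-1.46 ± 0.38). In both genes every mutant array was below both wild-type arrays (11.1% of all tested). They are close neighbours in the annotation, with 4 gene records between them. THI2.1, a thionin of the small cysteine-rich proteins known from defence and from flowers, had 4047 and 665 in atyak1-1, 3636 and 2439 in atyak1-2, and 9626 and 9131 in the wild type (-2.08 ± 0.63). It was again below both wild-type arrays on each mutant array. Without atyak1-1 replicate 2 the difference was -1.43 for THI2.1, -2.86 for AT3G28750, -3.37 for AT3G07820 and -1.13 for AT3G28790.

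The other 6 members at least 2-fold lower had no single gene, as 3 listed several genes and 3 listed none. They were between 2.19-fold and 4.01-fold lower. Their signals were between 1315 and 9206 on the mutant arrays and between 8265 and 16590 on the wild-type arrays. The one of them at wild-type rank 128, which has no gene listed, had 4345 and 2071 in atyak1-1, 3096 and 2587 in atyak1-2, and 9134 and 11090 in the wild type (-1.79 ± 0.28). It passed the limma test above, as did the one at wild-type rank 177. The wild-type arrays that chose them enter that test, so nothing is read from it.

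**Figure D4:**
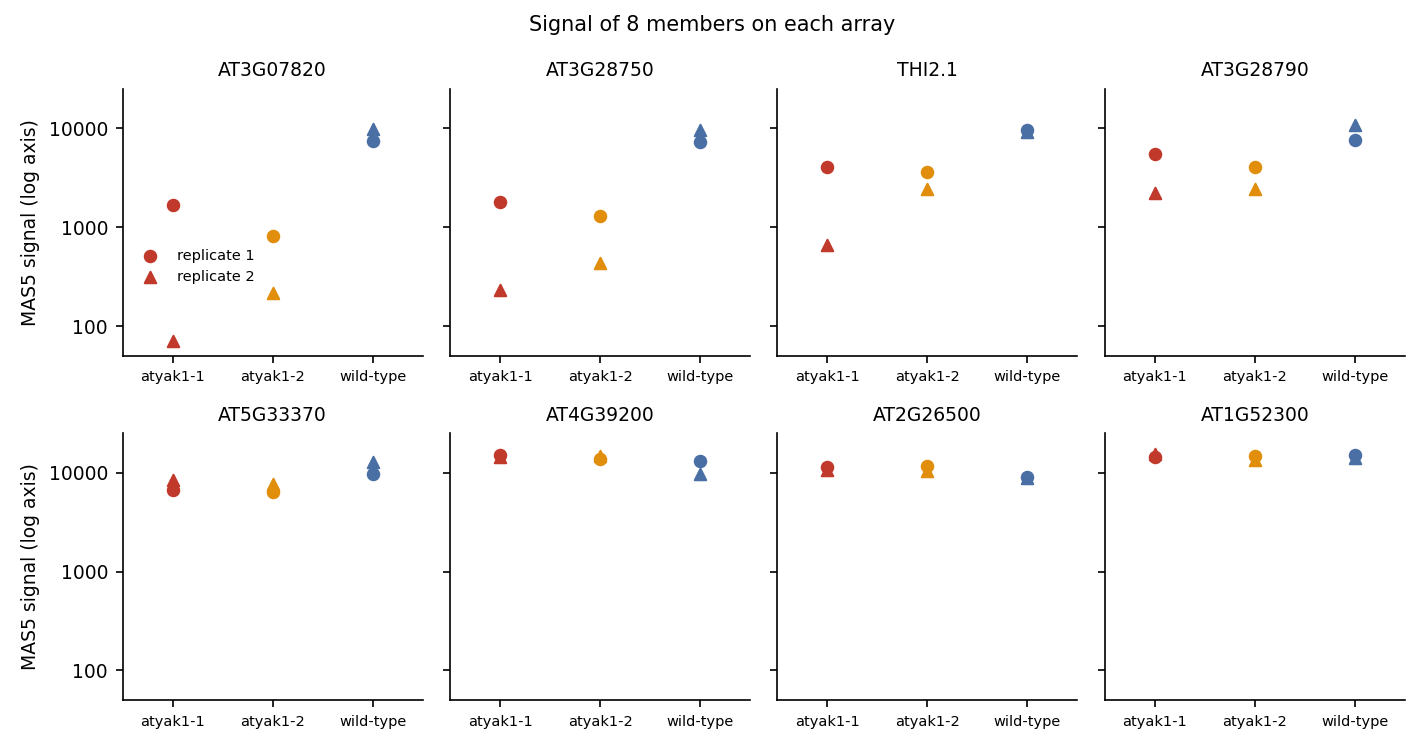
Signal (log axis) of 8 members on each array, by genotype, with circles for replicate 1 and triangles for replicate 2. In the upper row (AT3G07820, AT3G28750, THI2.1 and AT3G28790) all mutant points lie under both wild-type points and each allele's triangle is under its circle. In the lower row the points of each gene lie closer together. There all mutant points lie under both wild-type points in AT5G33370 and above both in AT4G39200 and AT2G26500. The groups overlap in AT1G52300.

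In all 10 of these members replicate 2 was lower than replicate 1 in both alleles. The median difference from the wild type was -1.23 within replicate 1 and -2.41 within replicate 2, with ranges of -2.69 to -0.69 and of -6.33 to -1.56. Wild-type replicate 2 was the higher of the wild-type arrays in 9 of the 10, which adds to the difference within replicate 2. For AT3G07820 the values were -2.69 within replicate 1 and -6.33 within replicate 2, for AT3G28750 -2.26 and -4.94, for THI2.1 -1.33 and -2.84, and for AT3G28790 -0.69 and -2.23. Over all 200 members the median was 0.07 within replicate 1 and -0.04 within replicate 2, a smaller gap between the replicates than in these 10.

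Another 7 members were lower by 0.45 to 1 log2 units, a bound set after the values were seen. Every mutant array was below both wild-type arrays in each of the 7 (11.1% of all tested), which choosing them by a lower mutant mean favours. The replicates ran differently than in the members that were lower by more. In none was replicate 2 the lower one in both alleles. It was the higher one in all 7 in atyak1-1, in 4 of the 7 in atyak1-2, and in all 7 in the wild type too. Their median difference was -0.74 within replicate 1 and -0.62 within replicate 2. The 1 of them with a single gene was AT5G33370, for a lipase of the GDSL family known from cutin synthesis. It had 6677 and 8445 in atyak1-1, 6374 and 7611 in atyak1-2, and 9687 and 12775 in the wild type (-0.62 ± 0.16), and was 0.57 lower within replicate 1 and 0.67 lower within replicate 2 on the log2 scale. The one at wild-type rank 20, with no gene listed, had 8290 and 8967 in atyak1-1, 9091 and 9070 in atyak1-2, and 14933 and 16352 in the wild type (-0.82 ± 0.09). Its signals on the mutant arrays spanned a narrow range, and the probe sets given by rank were chosen after their values were seen.

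**Figure D5:**
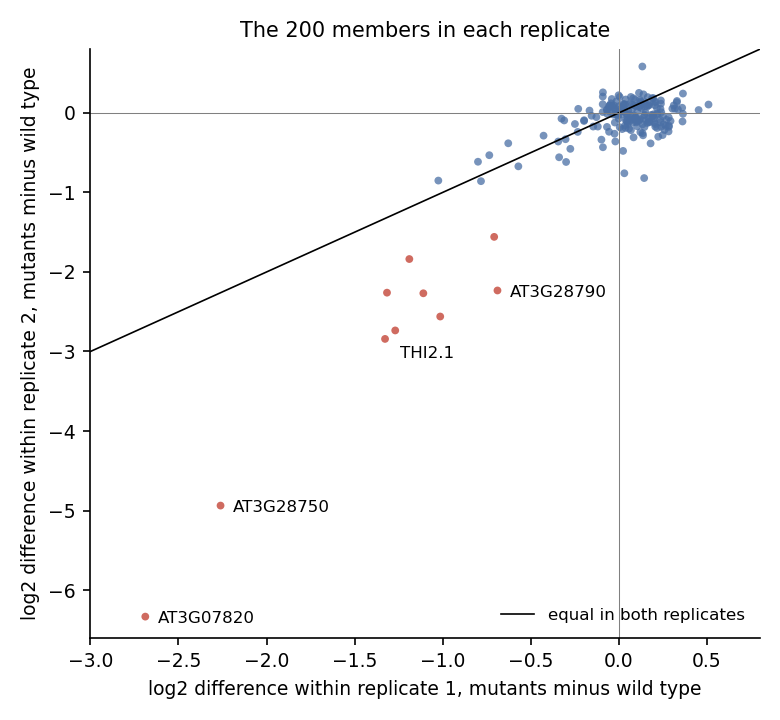
Each point is 1 member, with its log2 difference (mean of both alleles minus wild type) within replicate 1 on the horizontal axis and within replicate 2 on the vertical axis, and the line marks equal values. The 10 red members, at least 2-fold lower in the mean, all lie under the line, and the other members scatter on both sides of it, closer to 0.

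The other named members of the cell wall and of secreted proteins were nearer to the wild type than AT3G07820 and THI2.1. AT2G20870, for a putative cell wall protein, had 13865 and 13975 in atyak1-1, 13558 and 12695 in atyak1-2, and 16594 and 18222 in the wild type (-0.36 ± 0.09). AT5G22430 and AT1G78040, of the family of the olive pollen allergen and of extensins, had -0.32 ± 0.14 and -0.07 ± 0.10. AT5G22430 had -0.47 without wild-type replicate 1 and -0.17 without wild-type replicate 2, and AT1G78040 had -0.17 and 0.02, so its sign turned. All 5 members of the cell wall group had lower means in the mutants, and in 4 of them, AT1G78040 being the exception, the mutant arrays lay below both wild-type arrays (11.1% of all tested). The group was put together by hand after the members were known, and the choice by high wild-type signal favours lower values. No effect on the class is read from this. None of the 5 passed in limma (2 had an unadjusted p under 0.05, and 2 passed with the replicate block, where 7.59% of all tested did). Of the 5 small secreted proteins, THI2.1 was the 1 with separate groups. The defensin gene LCR69 had 0.13 ± 0.10, and AT1G66850 and AT2G10940, of the lipid transfer protein family, had 0.10 ± 0.12 and -0.20 ± 0.12. Without wild-type replicate 1 AT1G66850 had -0.06, and without wild-type replicate 2 AT2G10940 had -0.36.

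The measured markers of late pollen, in sum, and 1 nectary gene had lower signals on the mutant arrays, beside the lower members. Of 20 late pollen genes listed, 11 had a named probe set, and 7 of the 11 were above the array median on both wild-type arrays. Their summed signal was 2006 and 1572 in atyak1-1, 1874 and 1695 in atyak1-2, and 7045 and 7879 in the wild type, and 0 of the 11 are members. The nectary transporter SWEET9 is the 1 measured of 2 nectary genes. It had 35.5 and 15.4 in atyak1-1, 34.2 and 23.0 in atyak1-2, and 1867 and 1289 in the wild type. The 5 measured of 26 tapetum and pollen coat genes had a higher summed signal in replicate 2 of each group, although TAP35/TAP44 alone had 1927 and 1230 in wild-type replicates 1 and 2. They summed to 7721 and 12885 in atyak1-1, to 8218 and 11974 in atyak1-2, and to 6510 and 10620 in the wild type. The 2 measured of 6 root genes, PYK10 and EXPA7, summed to between 53.3 and 90.2 on the mutant arrays, and to 54.2 and 47.2 in the wild type. No marker of any list was at 0. The lists for floral organ identity and leaf mesophyll had 0 named probe sets, so the bud tissue was checked through the other lists alone. The part of these cells in the members' differences was not tested.

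The difference between the alleles uses no wild-type value, although its SE and p take the spread of all 6 arrays, wild type included. No member passed the test between atyak1-2 and atyak1-1, which does not show that the alleles act alike. In limma 0 of 200 passed (0% of all tested; 1 member and 151 of the 15164 probe sets had an unadjusted p under 0.05), and the smallest adjusted p of a member was 1.00. A fit to the 4 mutant arrays alone also called 0, with 1 member at an unadjusted p under 0.05. The median log2 difference of the members, atyak1-2 minus atyak1-1, was 0.04, with quartiles at -0.03 and 0.10, against quartiles at -0.10 and 0.10 over all tested. Both atyak1-2 arrays were above both atyak1-1 arrays in 34 members (17.0%; 10.5% of all tested) and below them in 9 (4.50%; 10.3% of all). After quantile normalization the median was 0.00036. The largest difference was that of THI2.1, at 0.86 ± 0.73, with atyak1-1 replicate 2 the lowest of its arrays. AT3G07820 had 0.29 ± 1.35 and AT3G28750 0.22 ± 0.92, with SEs that leave large differences possible in either direction. At the other end AT2G10940 had -0.22 ± 0.13, AT3G28790 -0.17 ± 0.44 and AT4G17390 -0.17 ± 0.11.

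A further comparison chose the 200 brightest probe sets on 1 wild-type array and set the mutants against the other wild-type array, in a limma fit without the array that chose. The lone wild-type array is assumed to vary like the other groups. Chosen on wild-type replicate 1, the set had a median log2 difference of -0.03, with quartiles at -0.16 and 0.07. Chosen on wild-type replicate 2, it had 0.09, with quartiles at 0.004 and 0.17. By the first choice 8 probe sets and by the second 10 were at least 2-fold lower, and 0 were at least 2-fold higher by either. The shares of all tested that were lower or higher by that much in these fits are not given here. Nothing is therefore read from these counts. In each choice 0 of 200 passed (0.0528% and 0.0462% of all tested), with 21 and 22 at an unadjusted p under 0.05 (12.1% and 8.98% of all). THI2.1, which both choices held, had -2.05 ± 0.90 and -2.12 ± 0.90. AT5G33370, also in both, had -0.82 ± 0.18 and -0.42 ± 0.18. AT3G07820, in the second choice alone, had -4.30 ± 1.65. These named genes were picked for low differences in the full contrast, which uses the same mutant arrays and both wild-type arrays. That choice favours lower values here too, so the values are a description and no separate test of these genes. With 1 wild-type array such a fit called 8 and 7 of 15164 probe sets in all.

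Some features that the choice did not use are given as a description. Probe sets of the kind s_at, whose probes match several transcripts, made up 43 of the 200 (21.5%), against 503 of 15164 tested (3.32%). Of the 63 members with a single gene, 6 are chloroplast genes (9.52%), against 67 of 8306 tested probe sets with a single gene (0.807%). The 63 genes had a median length of 1557 bases, introns included, against 2367 bases over the 8277 tested probe sets whose single gene has a length. The ribosomal members had a median of 1594 bases. As 63 of 200 members had a gene to look up, these last counts hold for the named members and not for the set.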

How the data were processed

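The values are MAS5 signals, deposited for 22810 probe sets as an intensity that is not logged. GCOS and MAS5 are named without a version, per the submitters' processing notes. With the top and bottom 2% trimmed off, the 6 array means lay from 500.038 to 500.041, a common scaling target. This removes differences in overall brightness. Detection calls and scanner saturation were not analysed here. Replicates are called biological in the titles and array medians were 213 to 223. With 2 arrays a group, it is their number that limits precision.

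Signals were taken to log2 with no pseudocount. The 64 control probe sets and the third of the others with the lowest mean were left out, which kept 15164. Using limma 3.58.1 in R 4.3.3, 3 genotype means were fitted to all 6 arrays with a variance trend (3 residual and 3.84 prior degrees of freedom). Adjustment was by Benjamini-Hochberg across every probe set tested, at a threshold of 0.05. Plots used matplotlib 3.10.9.

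Arrays of 1 replicate number deviated together, with correlations of 0.25 (wild type with atyak1-1), 0.35 (wild type with atyak1-2) and 0.61 (the alleles). The main fit did not pair the arrays. Same-numbered arrays were treated as pairs, on this weak evidence from the titles and values, in the differences within replicates and in the block, which is an alternative.

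The members and lists were chosen with earlier results of these data known. The gene table lists 1 gene for 13513 probe sets, several for 503 and none for 8794. Of those with 1 gene, 13436 matched a gene record. Keywords in these records placed 5 members, so the classes were instead assigned by hand from general knowledge of the loci, after the members were known. Genes named were the 10 brightest, the 8 highest and 8 lowest differences, 3 brightest of each class, and 3 highest and 3 lowest differences of the alleles. The other alternatives were the normalization, pseudocount, filter, variance model, arrays in the fit, each array left out, and the choice of members. AtYAK1 itself, and so the genotypes, and all sequences were not analysed here.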

Additional observations from a re-analysis of the deposited data

How the results depend on the processing

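Of the 200 members 5 passed for both alleles against the wild type, 1 for atyak1-1 and 1 for atyak1-2. With the replicate number as a block the counts were 19, 14 and 14, and without the variance trend 1, 0 and 0. For both alleles the count was 2 under the stricter filter, 10 in a fit of 2 groups, and 12 when that fit left out the replicate 2 mutant arrays, which was added after the data were seen. With members taken over all 6 arrays it was 2, with the 100 brightest 2 and with the 400 brightest 10. With members chosen on 1 wild-type array and compared through the other it was 0 both times. For atyak1-1 it was 0 when the fit held just the 2 groups compared, and for atyak1-2 it was 12 in that fit, 4 with array weights and 0 without the filter. With the 400 brightest it was 4 for each allele. Leaving out each array in turn gave 0 to 13 for both alleles, 0 to 11 for atyak1-1 and 0 to 12 for atyak1-2. Shares of all probe sets tested are given above for the block and for single arrays left out. For the other fits no share is set beside the count, so nothing about the members is read from its changes. The cause of these changes was not tested. Where a count was 0, 15 to 28 members had an unadjusted p under 0.05.

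The median difference of the members, 0.02, was 0.075 within replicate 1 and -0.039 within replicate 2, also added later. It was -0.034 and 0.093 when 1 wild-type array chose the members, and -0.049 to 0.086 with each array left out. Its sign is therefore not settled. The planned promoter motifs and protein lengths were not run, as no sequences were used here. The count of 171 members kept was between 166 and 172 under every alternative run, and the difference of the alleles called 0 members in limma under each, with 0 to 16 at an unadjusted p under 0.05. The replicate block changed no call of that contrast. Of 111 values of the headline results under the alternatives, 44 were counted as moved and 67 as the same. Of 464 values of named genes under the alternatives, 448 moved by less than the spread between replicates and 16 by more. None of these genes was called in the main fit, so no direction called there could turn. With 1 array left out the sign turned for 10 of them, psbM, atpB, atpE, COR15A, AT1G13930, AT1G52300, AT1G54410, AT1G66850, AT1G78040 and AT3G60245. Under the replicate block AT3G07820, AT3G28750, THI2.1, AT3G28790, AT5G33370 and AT2G20870 passed in limma, all lower (4.79% of all tested were called lower). The wild-type arrays chose the members, so nothing is read from these calls.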

Other observations

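Chosen after their values were seen, the 29 probe sets that joined the 200 brightest in the mutants had small differences, from 0.06 to 0.49 log2 units with a median of 0.22, and 17 had a single gene. AT2G23120 came from furthest down, at rank 167 in the mutants and rank 332 in the wild type (0.49 ± 0.12). LHCB4.2, a relative of the member LHCB4.1 in the light-harvesting antenna of photosystem II, had 0.38 ± 0.17. The chloroplast genes ndhI, rpl33 and psbF had 0.33 ± 0.10, 0.25 ± 0.12 and 0.18 ± 0.13. None of these named genes passed in limma over all probe sets tested.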
